A study of Mus musculus with 8 samples.

Results

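Open chromatin at the semaphorin, Slit and netrin genes and at the genes of their receptors was compared between retinal ganglion cells (RGCs) that received GFP, Ezh2 or Ezh2-Y726D. The group holds 43 genes of the 21883 protein-coding genes in the RefSeq annotation. They were listed by name as 25 ligands (20 semaphorins, 3 Slits and 2 netrins) and 18 receptors (7 plexins, 2 neuropilins, 4 Robo proteins and the 5 netrin receptors Dcc and Unc5a to Unc5d), and every peak that overlapped one of these genes or the 10 kb on either side of it (mouse build GRCm38) was taken. Overlapping peaks of the 8 lists (by 1 bp or more) were joined, which gave 189914 regions, and 1125 of these regions lay at the 43 genes. A peak is a stretch where ATAC-seq, which cuts accessible DNA with a transposase, gave more reads than the local background.

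The samples were 3 GFP, 3 Ezh2 and 2 Ezh2-Y726D libraries of 50000 sorted cells each. All came from C57BL/6J mice whose eyes received AAV2 with 1 of these genes, whose optic nerve was crushed 2 weeks later and whose RGCs were sorted 3 days after the crush, so the GFP group was injected and injured as well. Ezh2 is the histone methyltransferase of Polycomb repressive complexes, and Ezh2-Y726D is a form without catalytic activity. The study asked how either form acts on RGC axon regeneration, and its methods gate the sort on Thy1, a surface protein that T cells also carry. How many animals a library pools is not given in the sources used here, and p-values measure only the spread between these libraries, which may be technical.

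Axons are steered by proteins that attract or repel the growth cone. Secreted class 3 semaphorins bind neuropilins, which signal through plexins, whereas the membrane-bound classes mostly bind plexins directly. Slit proteins repel axons through Robo receptors. Netrin-1 attracts axons through Dcc and repels them through Unc5 receptors. In the developing visual system netrin-1 and Dcc guide RGC axons out of the eye at the optic disc, and Slit1 and Slit2 acting on Robo2 shape the path of RGC axons at the optic chiasm.

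The lists held between 112939 and 135895 peaks. Read numbers are unknown, and the background pileup recovered from the steps of the folds, a relative index of depth, ran from 2.69 to 3.74 in GFP, from 3.09 to 3.59 in Ezh2 and from 2.39 to 3.12 in Ezh2-Y726D. Of 15 RGC markers, 13 or 14 had a peak at a start site in each list. Of 18 microglia and macrophage markers, 11 to 16 had one in the GFP lists, 15 or 16 in the Ezh2 lists and 4 in both Ezh2-Y726D lists, where Cx3cr1 and Ptprc, which had one in all 6 other lists, had none. Of 17 T cell markers the numbers were 14 to 16, 16 or 17, and 3 to 5, and Cd3e, Cd3g and Cd8a had none in the Ezh2-Y726D lists and one in every other list. The summed number of peaks at these T cell genes was 89 to 113 with GFP, 129 to 134 with Ezh2 and 56 in both Ezh2-Y726D lists, and at the microglial genes 84 to 99, 103 to 108 and 51. Start-site peaks were found at 8 or 9 of 14 endothelial markers, 10 of 11 Muller glia markers, 8 or 9 of 10 amacrine markers and 9 or 10 of 10 bipolar cell markers in every list, and at 11 of 12 rod markers in GFP, 8 to 10 in Ezh2 and 10 or 11 in Ezh2-Y726D. In such bulk samples, fewer cells of a type and less accessibility per cell cannot be told apart.

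Most guidance genes were open at their start sites in every group. A peak within 1 kb of a start site was present in all 8 lists for 39 of the 43 genes. For the 9 genes without an entry in the promoter table, a peak at either end of the gene counted. The same share over all protein-coding genes was not taken, so the count has no background beside it. Slit3 had one in 7 lists, Sema3b in 1 list, and Sema3a and Robo4 in none. Within 3 kb, Sema3a, Sema3b and Slit3 had a peak in all 8 lists and Robo4 still had none. Robo4, a Robo protein of endothelial cells, had 2 or 3 peaks per list, and 4 regions were shared between it and its neighbour Robo3.

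The regions were mostly away from start sites and were weaker than the average peak. Among the 1129 pairs of gene and region, 54 were at start sites, 985 elsewhere in the genes and 90 in the flanks. The strength of a peak was taken as the percentile, within its own list, of its fold over the local background (100% is the strongest peak). The median percentile was 55.7% at start sites and 40.9% elsewhere in the genes, against 51.7% over all regions. Start-site regions were found in all 8 lists for 83.3%, and regions elsewhere in the genes for 28.6%. In all, 366 of the 1125 regions (32.5%) had a peak in every list, against 36.6% of all regions.

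Of the 45 start-site regions found in all lists, 1 was called for Ezh2 minus GFP, 2 for Ezh2-Y726D minus GFP and 4 for Ezh2 minus Ezh2-Y726D, and over all regions 1.59% were called higher and 2.84% lower, 3.55% and 4.65%, and 7% and 6.96%. They were at 5 genes, namely Sema4d and Sema4a (membrane-bound semaphorins that also act between immune cells), Slit1, Slit2 and Unc5a. Each region was tested by limma on the within-list rank of its fold, turned into a normal score so that a difference of 1 is 1 SD of a list, with Benjamini-Hochberg adjustment over the 69493 regions found in all lists. The RefSeq promoters (GRCm38.p6) nearest the regions of Sema4d, Sema4a, Slit2 and Unc5a are shown because the accessibility of these regions differed. The first Sema4d start lies outside its region. Each promoter runs from 250 bases before to 50 bases after the start, 5′ to 3′, with CG dinucleotides in capitals.
Sema4d, chr13:51748761-51749060, minus strand: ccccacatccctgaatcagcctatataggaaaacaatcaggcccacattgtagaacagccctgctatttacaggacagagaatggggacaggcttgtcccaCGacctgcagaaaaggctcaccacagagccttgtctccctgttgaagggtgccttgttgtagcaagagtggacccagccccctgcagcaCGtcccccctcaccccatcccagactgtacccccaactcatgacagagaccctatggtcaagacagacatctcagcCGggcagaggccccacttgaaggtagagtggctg
Sema4d, chr13:51756634-51756933, minus strand: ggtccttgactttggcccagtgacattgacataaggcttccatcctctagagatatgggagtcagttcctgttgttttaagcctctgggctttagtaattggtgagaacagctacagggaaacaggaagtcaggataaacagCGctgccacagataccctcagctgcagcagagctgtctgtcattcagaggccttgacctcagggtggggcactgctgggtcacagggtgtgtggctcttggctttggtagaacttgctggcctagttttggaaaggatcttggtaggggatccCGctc
Sema4a, chr3:88458835-88459134, minus strand: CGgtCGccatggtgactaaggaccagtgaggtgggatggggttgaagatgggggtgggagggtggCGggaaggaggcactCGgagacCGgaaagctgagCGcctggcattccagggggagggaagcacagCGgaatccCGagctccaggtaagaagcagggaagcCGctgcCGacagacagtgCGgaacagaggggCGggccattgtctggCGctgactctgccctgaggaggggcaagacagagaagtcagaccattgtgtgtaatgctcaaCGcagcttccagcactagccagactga
Sema4a, chr3:88461133-88461432, minus strand: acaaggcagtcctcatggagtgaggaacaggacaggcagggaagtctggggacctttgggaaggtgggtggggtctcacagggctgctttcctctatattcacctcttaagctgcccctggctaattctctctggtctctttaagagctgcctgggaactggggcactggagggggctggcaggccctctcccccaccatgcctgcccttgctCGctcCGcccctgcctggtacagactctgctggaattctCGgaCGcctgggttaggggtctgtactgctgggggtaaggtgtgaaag
Slit2, chr5:47982905-47983204, plus strand: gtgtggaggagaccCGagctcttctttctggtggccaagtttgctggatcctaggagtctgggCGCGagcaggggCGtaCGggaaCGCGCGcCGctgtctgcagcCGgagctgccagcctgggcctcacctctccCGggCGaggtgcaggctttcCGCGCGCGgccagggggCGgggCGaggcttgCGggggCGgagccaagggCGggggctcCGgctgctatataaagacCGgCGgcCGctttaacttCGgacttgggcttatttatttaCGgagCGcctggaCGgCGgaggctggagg
Unc5a, chr13:54949161-54949460, plus strand: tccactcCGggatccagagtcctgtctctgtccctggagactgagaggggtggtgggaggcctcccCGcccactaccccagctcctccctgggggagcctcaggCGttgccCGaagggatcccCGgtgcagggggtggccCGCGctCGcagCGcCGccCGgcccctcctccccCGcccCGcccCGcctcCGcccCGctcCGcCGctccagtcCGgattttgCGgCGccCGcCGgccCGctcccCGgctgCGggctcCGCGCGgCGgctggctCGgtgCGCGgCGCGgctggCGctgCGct

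The number of CG dinucleotides was 37 at Unc5a and 30 at Slit2. Of the other starts shown, it was 14 at the downstream and 4 at the upstream Sema4a start, and 3 and 2 at those of Sema4d. The median was 17 over the 47 promoters found for 34 of the 43 genes and 7 over all 32851 promoters. The latter are of 27025 genes, more than the 21883 protein-coding genes, so these comparisons are not matched for the kind of gene. Median G+C was 64.0% at the guidance genes and 52.7% over all promoters. The letters GGGCGG on either strand were in 68.1% of guidance promoters and 35.7% of all, CCAAT in 17.0% and 37.4%, CANNTG in 55.3% and 72.3%, and TGANTCA in 6.38% and 7.81%. GGGCGG was in both Sema4a promoters and those of Slit2 and Unc5a, and TGANTCA in the Sema4d promoter at chr13:51748761-51749060 among those shown. These are matches of letters in windows of 300 bases.

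At Sema4d, the region beside the first of these starts, chr13:51747956-51748718, stood at percentiles of 37.1%, 45.0% and 53.3% with GFP, 58.5%, 68.7% and 62.7% with Ezh2, and 38.9% and 18.7% with Ezh2-Y726D. Every Ezh2 list was above every list of the other groups. The Ezh2 minus Ezh2-Y726D difference was 1.00 ± 0.22 (SE, n = 3 and 2, limma adjusted p = 0.0151), and without Ezh2-Y726D replicate 2 it was not called. The second start, inside chr13:51756399-51757006, lay at 10.5%, 12% and 15.1% with GFP, 19.6%, 27.2% and 21.9% with Ezh2, and 3.09% and 5.03% with Ezh2-Y726D. The 3 groups did not overlap, and the Ezh2 minus Ezh2-Y726D difference was 0.81 ± 0.17 (SE, limma adjusted p = 0.0119), which was not called without either Ezh2-Y726D library.

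Sema4a has 4 start sites in the promoter table, and downstream and upstream here name those whose promoters are shown. The downstream start was highest with Ezh2-Y726D. The region over this start, chr3:88458415-88459278, also holds a further Sema4a start. It was at 6.78%, 5.64% and 14.3% with GFP, 2.46%, 5.49% and 5.08% with Ezh2, and 19.0% and 46.1% with Ezh2-Y726D. Both Ezh2-Y726D lists were the highest, with an Ezh2 minus Ezh2-Y726D difference of -1.16 ± 0.23 (SE, limma adjusted p = 0.0102) that was not called without Ezh2-Y726D replicate 2. The region over the upstream start, chr3:88460938-88461647, was at 24.8%, 16.5% and 7.17% in GFP and at 4.16% and 4.77% in Ezh2-Y726D, and it had no peak in the 3 Ezh2 lists. Here the Ezh2-Y726D lists were below every GFP list, unlike at the downstream start.

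Slit2 was lower with Ezh2-Y726D. Its start-site region, chr5:47982795-47985644, was at 46.1%, 64.5% and 60.8% with GFP, 31.5%, 59.8% and 56.1% with Ezh2, and 17.5% and 28.7% with Ezh2-Y726D. The Ezh2-Y726D lists were below all others, and the difference from GFP was -0.99 ± 0.26 (SE, n = 2 and 3, limma adjusted p = 0.0447). It lost its call in 9 of 16 alternatives, among them leaving out either Ezh2-Y726D library, GFP replicate 2 or 3, or Ezh2 replicate 3.

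Unc5a was also lowest with Ezh2-Y726D. Its region chr13:54948485-54949998 was at 55.1%, 58.7% and 54.5% with GFP, 59.4%, 63.9% and 63.0% with Ezh2, and 40.2% and 34.0% with Ezh2-Y726D. The Ezh2 minus Ezh2-Y726D difference of 0.73 ± 0.18 (SE, limma adjusted p = 0.0252) was lost in 6 of 16 alternatives, including those without either Ezh2-Y726D library or Ezh2 replicate 2 or 3.

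For Slit1, whose start was taken as either end of the gene, a region at the higher-numbered end, chr19:41745715-41746974, was at 62.2%, 73.9% and 71.3% with GFP against 41.4%, 39.5% and 44.7% with Ezh2 and 50.8% and 44.5% with Ezh2-Y726D. All GFP lists were above all others, with differences of -0.88 ± 0.17 for Ezh2 minus GFP (limma adjusted p = 0.0233, lost in 6 of 15 alternatives, among them leaving out GFP replicate 2 or 3 or any Ezh2 library) and -0.71 ± 0.19 for Ezh2-Y726D minus GFP (adjusted p = 0.0473, lost in 13 of 15, among them leaving out any 1 library). At the other end of Slit1, chr19:41597120-41598287 had peaks at 38.3% to 62.3% in GFP and 62.5% to 75.5% in Ezh2 and none in Ezh2-Y726D.

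**Figure D1:**
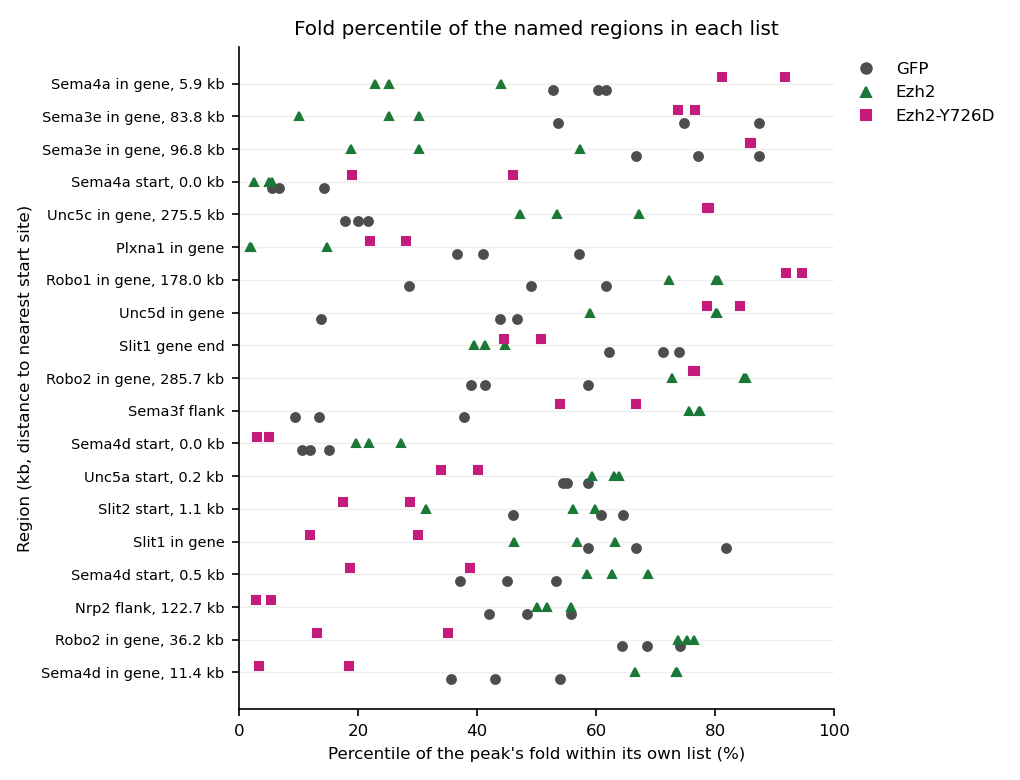
Percentile of fold within its own list (x axis, %) of each named region found in all lists (rows, with the distance to the nearest RefSeq start site where there is one in the promoter table); each symbol is 1 library of GFP (circles), Ezh2 (triangles) or Ezh2-Y726D (squares). The Ezh2-Y726D libraries lie at 2.90% to 35.1% in the bottom 3 rows (a Sema4d region, a Robo2 region and the Nrp2 flank), below the Ezh2 libraries, and at 81.1% and 91.7% in the top row (a Sema4a region), above them.

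The receptors gained peaks with Ezh2-Y726D. Their total number of peaks was 371, 349 and 422 with GFP, 385, 387 and 435 with Ezh2, and 452 and 485 with Ezh2-Y726D. Since the lists differ in length, numbers are also given per 100000 peaks of the list, and these were 321, 309 and 316 with GFP, 305, 303 and 320 with Ezh2, and 363 and 377 with Ezh2-Y726D. The Ezh2-Y726D libraries were above all others and the GFP and Ezh2 libraries overlapped. For the ligands the same numbers were 243, 241 and 244 with GFP, 226, 238 and 226 with Ezh2, and 257 and 259 with Ezh2-Y726D, so that the 3 groups did not overlap. Over all protein-coding genes the mean number per 100000 was 70683 ± 401 for GFP, 70979 ± 492 for Ezh2 and 69056 ± 355 for Ezh2-Y726D (SD, n = 3, 3 and 2), lowest in Ezh2-Y726D. These numbers are not matched for gene length, and higher peak numbers with Ezh2-Y726D went with length, as described below. The median percentile of the peaks ranged from 37.8% to 41.7% over the 8 lists for all members and did not separate the groups.

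**Figure D2:**
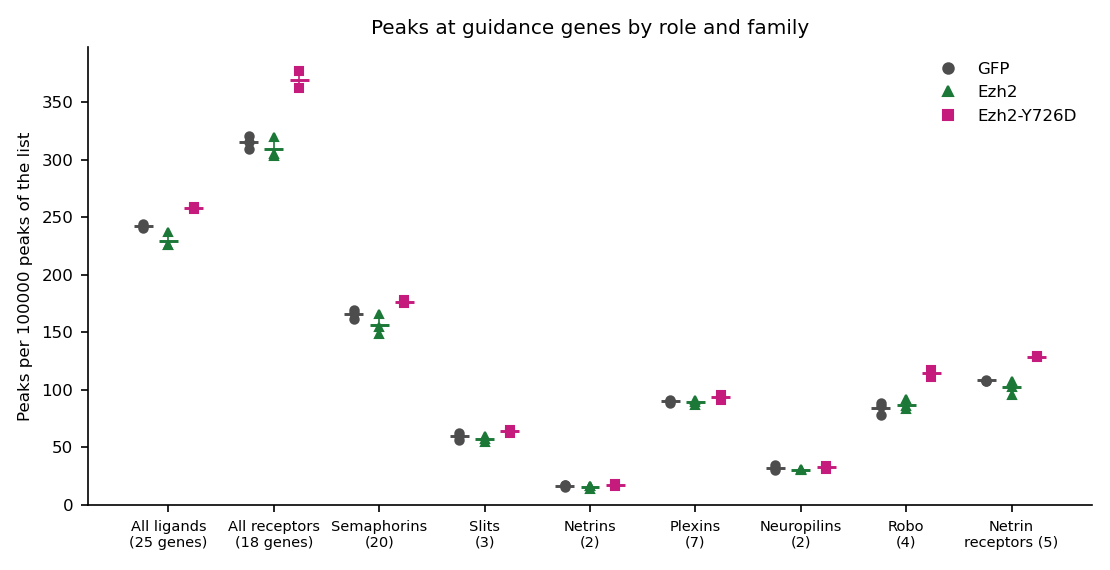
Peaks per 100000 peaks of the list (y axis) for ligands, receptors and each family, with the number of genes in brackets; each symbol is 1 library, horizontal lines are group means and vertical lines ± 1 SD (n = 3 GFP, 3 Ezh2 and 2 Ezh2-Y726D). The Robo genes and the netrin receptors stand highest in Ezh2-Y726D, with means of 114 and 129 against 84.2 and 108 in GFP, and the plexins and neuropilins nearly coincide.

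By family, the Robo genes, the netrin receptors, the semaphorins and the Slits stood highest in both Ezh2-Y726D lists. Per 100000 peaks, the Robo genes had 86.4, 77.9 and 88.3 with GFP, 83.2, 86.2 and 92.0 with Ezh2, and 112 and 117 with Ezh2-Y726D. The netrin receptors had 108, 109 and 108 with GFP, 103, 95.7 and 108 with Ezh2, and 128 and 130 with Ezh2-Y726D. In both of these families the Ezh2-Y726D libraries were well apart from all others. Semaphorins had 162 to 169 in GFP, 149 to 166 in Ezh2 and 176 to 178 in Ezh2-Y726D, and Slits had 56.2 to 62.9, 55.2 to 60.2, and 62.9 to 65.0, where the lowest Ezh2-Y726D and the highest GFP value of the Slits round to the same number. Netrins had 15.9 to 17.3 in GFP, 14.1 to 16.6 in Ezh2 and 16.8 to 17.9 in Ezh2-Y726D. Plexins (89.0 to 91.6, 87.1 to 90.9, and 91.4 to 95.5) and neuropilins (30.7 to 34.6, 30.2 to 31.7, and 31.3 to 34.2) overlapped.

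Gene by gene, 13 of the 43 members (30.2%) had more peaks in both Ezh2-Y726D lists than in any GFP list, and 3 had fewer, where 8.43% and 12% of 18686 protein-coding genes with a peak did so. The median number of peaks was 12.375 at the members and 3.625 at those genes, so these shares are not matched for the number of peaks. The 13 were the ligands Sema3d, Sema3g, Sema5a, Sema6b and Slit2 and the receptors Plxna2, Plxna4, Plxnb1, Nrp2, Robo1, Robo2, Unc5c and Unc5d, which are 5 of 25 ligands and 8 of 18 receptors. The 3 were Sema4a, Sema6c and Plxnc1. Per 100000 peaks of the list, 15 members were higher and 7 lower, beside 12.2% and 23.6% of all genes. Between Ezh2 and GFP, 3 members were higher (Sema4f, Sema7a and Plxnd1) and 1 was lower (Unc5c), against 8.11% and 2.48% of all genes. Between Ezh2 and Ezh2-Y726D, 3 were higher and 13 lower, against 20.9% and 8.1%. Exact permutation tests of a single gene cannot go below p = 0.1 for 3 libraries against 3 and p = 0.2 for 2 against 3, so none of these genes could pass on its own. When only peaks with a −log10 q of at least 5 were counted, 7 members were higher with Ezh2-Y726D than with GFP, beside 6% of all genes at that threshold. Without GFP replicate 3 or Ezh2-Y726D replicate 1 there were 21 higher. There were 13 without GFP replicate 1, 14 without GFP replicate 2 and 16 without Ezh2-Y726D replicate 2. Lower were 5 without GFP replicate 1 and 7 without Ezh2-Y726D replicate 2. With fewer lists such counts cannot fall, and why they rose unequally was not tested.

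**Figure D3:**
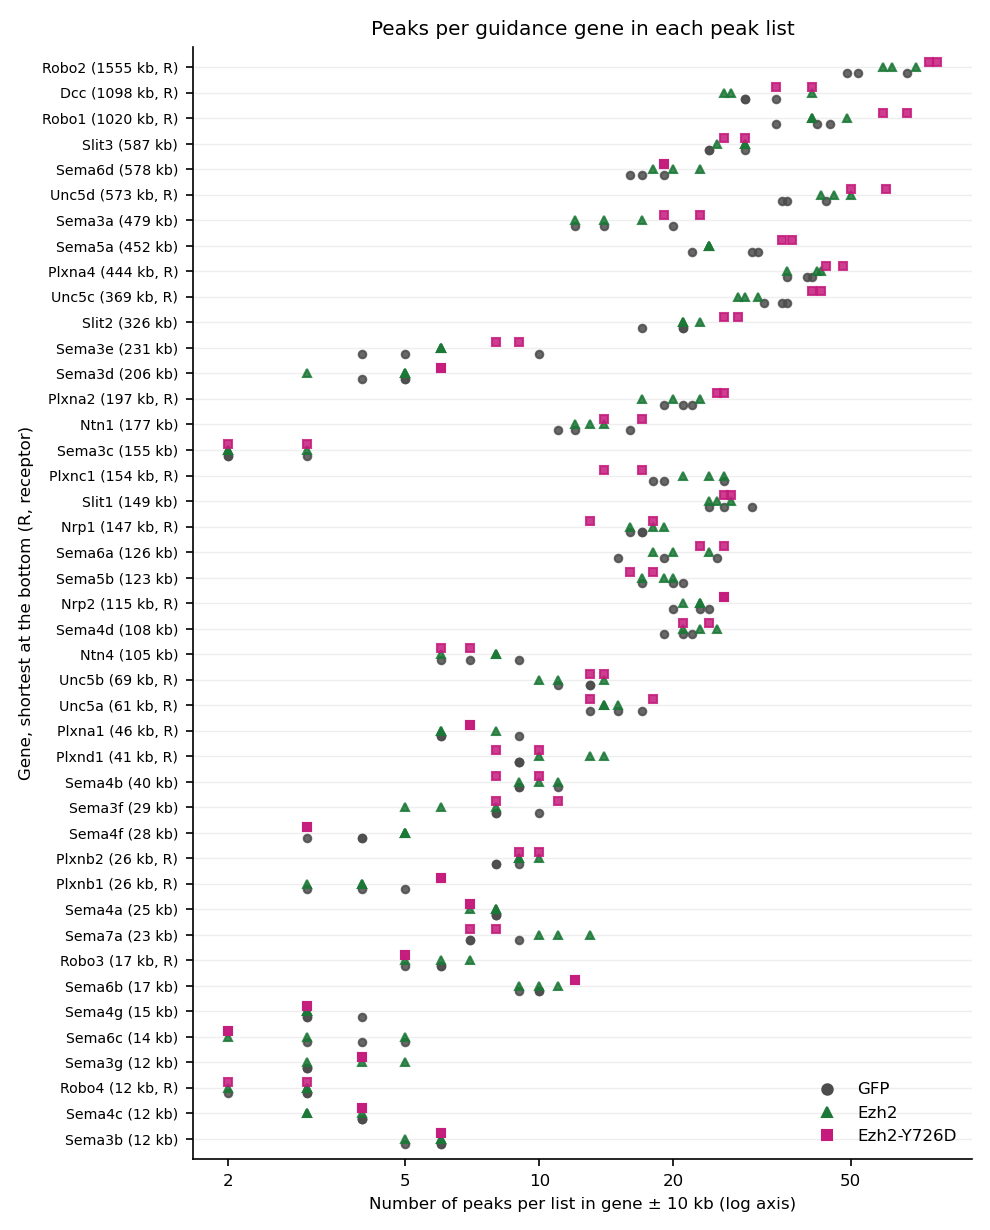
Number of peaks in the gene ± 10 kb (x axis, log scale) for each of the 43 genes, ordered by length with the shortest at the bottom (R, receptor); each symbol is 1 library. Robo1, with 34 to 45 peaks in GFP and 59 and 67 in Ezh2-Y726D, shows a gap between these groups, and Plxnc1 lies lower in Ezh2-Y726D than in both other groups.

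Robo2, the Slit receptor of RGC axons, had the most peaks of any member. It had 52, 49 and 67 peaks with GFP, 59, 62 and 70 with Ezh2, and 75 and 78 with Ezh2-Y726D. Means were 56.0 ± 9.64, 63.7 ± 5.69 and 76.5 ± 2.12 (SD), and only the Ezh2-Y726D libraries were apart from GFP. Of 112 regions at Robo2, 11 were gained with Ezh2-Y726D (a peak in each of its lists and in no GFP list), and 2 the reverse. At all genes of at least 300 kb, 6.35% of regions were gained and 2.89% lost. The region chr16:74375218-74376041, its centre 36195 bp from a start site, went down instead, with 74.2%, 64.4% and 68.6% with GFP, 75.3%, 76.5% and 73.8% with Ezh2, and 35.1% and 13.1% with Ezh2-Y726D. The differences were -1.36 ± 0.23 from GFP (limma adjusted p = 0.00952, not called without Ezh2-Y726D replicate 2) and 1.56 ± 0.23 for Ezh2 minus Ezh2-Y726D (adjusted p = 0.00303). A further Robo2 region, chr16:74806728-74807347, rose with both forms, from 38.9%, 41.4% and 58.7% with GFP to 85.1%, 72.8% and 84.8% with Ezh2 and 76.3% and 76.7% with Ezh2-Y726D (1.16 ± 0.19 for Ezh2 minus GFP, limma adjusted p = 0.0147, not called without GFP replicate 2; 0.93 ± 0.22 for Ezh2-Y726D minus GFP, adjusted p = 0.0299). A peak at chr16:74631797-74632387 was at 67.4%, 51.7% and 55.4% in GFP and 78.6% and 70.6% in Ezh2-Y726D and was absent from every Ezh2 list.

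Robo1, the other main Slit receptor of neurons, had 42, 34 and 45 peaks with GFP, 41, 41 and 49 with Ezh2, and 59 and 67 with Ezh2-Y726D. The Ezh2-Y726D libraries exceeded all others. Of 81 regions at Robo1, 8 were gained and 0 lost against GFP, beside 6.35% and 2.89% at all genes of at least 300 kb. Its region chr16:72840859-72841449, inside the gene, was at 49.1%, 28.7% and 61.8% with GFP, 72.2%, 80.5% and 80.2% with Ezh2, and 91.9% and 94.6% with Ezh2-Y726D. The 3 groups did not overlap, with differences of 1.85 ± 0.24 for Ezh2-Y726D minus GFP (SE, limma adjusted p = 0.00346), 0.99 ± 0.21 for Ezh2 minus GFP (adjusted p = 0.0309) and -0.86 ± 0.24 for Ezh2 minus Ezh2-Y726D (adjusted p = 0.0377). The first of these was called in 15 of 15 alternatives. The region chr16:72449249-72449824 had no peak in GFP, 33.5%, 47.2% and 54.5% with Ezh2, and 61.4% and 51.4% with Ezh2-Y726D.

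Unc5d, Plxna4 and Unc5c were the other members with most peaks. Unc5d, a receptor for netrin repulsion, had 35, 36 and 44 peaks with GFP, 46, 43 and 50 with Ezh2, and 50 and 60 with Ezh2-Y726D. Plxna4 is a plexin that signals for class 3 and class 6 semaphorins, and it had 40, 36 and 41 peaks with GFP, 36, 42 and 43 with Ezh2, and 44 and 48 with Ezh2-Y726D. Dcc, the netrin-1 receptor for attraction, had 29, 29 and 34 with GFP, 27, 26 and 41 with Ezh2, and 41 and 34 with Ezh2-Y726D, where GFP and Ezh2-Y726D met at 34.

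Unc5c had fewer peaks than GFP with Ezh2 and more with Ezh2-Y726D. This receptor for netrin repulsion had 35, 32 and 36 peaks with GFP, 28, 29 and 31 with Ezh2, and 43 and 41 with Ezh2-Y726D. The 3 groups did not overlap, and per 100000 peaks of the list they did not overlap either. On that scale the groups were also apart for Sema5a in the same order. They were apart in other orders for Unc5d, lowest in GFP, and for Sema4f, lowest in Ezh2-Y726D. Its region chr3:141740769-141741376 was at 20.0%, 21.7% and 17.8% with GFP, 53.5%, 47.2% and 67.2% with Ezh2, and 78.6% and 79.1% with Ezh2-Y726D, and so rose with both forms (1.03 ± 0.19 for Ezh2 minus GFP, limma adjusted p = 0.0197; 1.79 ± 0.21 for Ezh2-Y726D minus GFP, adjusted p = 0.00262, called in 13 of 13 alternatives). The region chr3:141778240-141779067 had peaks at 86.1%, 89.1% and 81.8% in Ezh2, at 35.3% and 48.0% in GFP replicates 2 and 3, and in no Ezh2-Y726D list. In Unc5d, chr8:28971483-28972386 rose from 13.8%, 46.7% and 43.9% in GFP to 80.4%, 59.0% and 80.2% in Ezh2 (1.21 ± 0.29, limma adjusted p = 0.0471, lost in 12 of 14 alternatives, among them leaving out any library but Ezh2 replicate 2) and 84.3% and 78.6% in Ezh2-Y726D (1.5 ± 0.33, adjusted p = 0.0233, lost in 6 of 14, among them without GFP replicate 1 or 3 or either Ezh2-Y726D library).

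**Figure D4:**
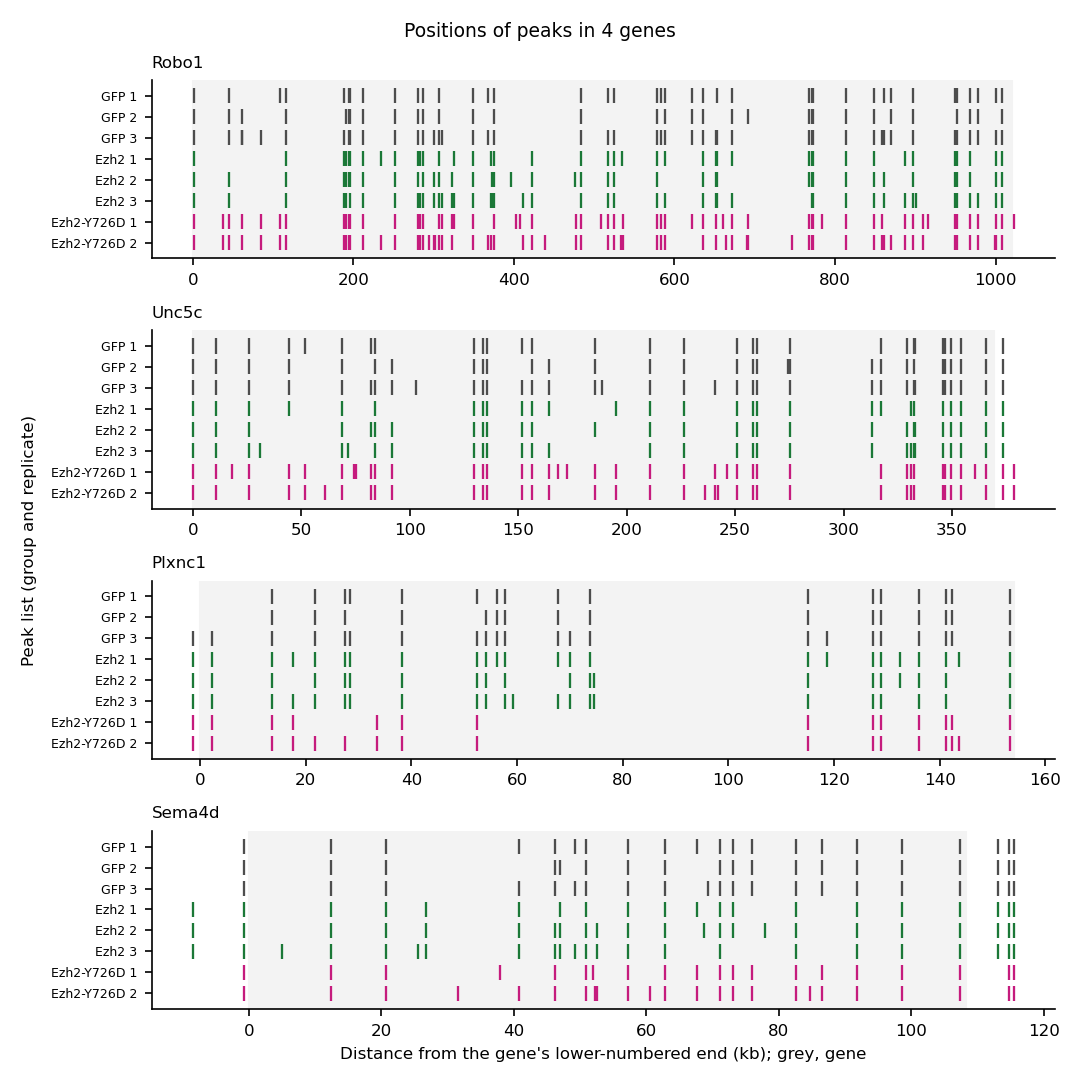
Positions of the peaks (vertical ticks) in each of the 8 lists (rows) along Robo1, Unc5c, Plxnc1 and Sema4d with 10 kb on either side (x axis, kb from the lower-numbered end of the gene; grey, the gene itself). The Robo1 rows hold the most ticks in the 2 Ezh2-Y726D lists, and the Plxnc1 rows hold 14 and 17 peaks there against 18 to 26 in the other lists.

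Higher peak numbers with Ezh2-Y726D went with the length of the gene, and this grouping by length was chosen after the data were seen. Of 556 protein-coding genes of at least 300 kb, 11 are members (Sema3a, Sema5a, Sema6d, Plxna4, Slit2, Slit3, Robo1, Robo2, Dcc, Unc5c and Unc5d). Among the 492 of these genes with at least 10 peaks on average, 47.0% had more peaks in both Ezh2-Y726D lists than in any GFP list and 4.07% had fewer, and 7 of the 11 members had more. Their median log2 ratio of peaks per 100000 was 0.17 over all these genes and 0.31 over the 11 members. For genes of 100 to 300 kb the median was -0.02 over 1164 genes and 0.05 over 9 members. For Ezh2 over GFP the medians at 300 kb and above were -0.02 and 0.00.

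**Figure D5:**
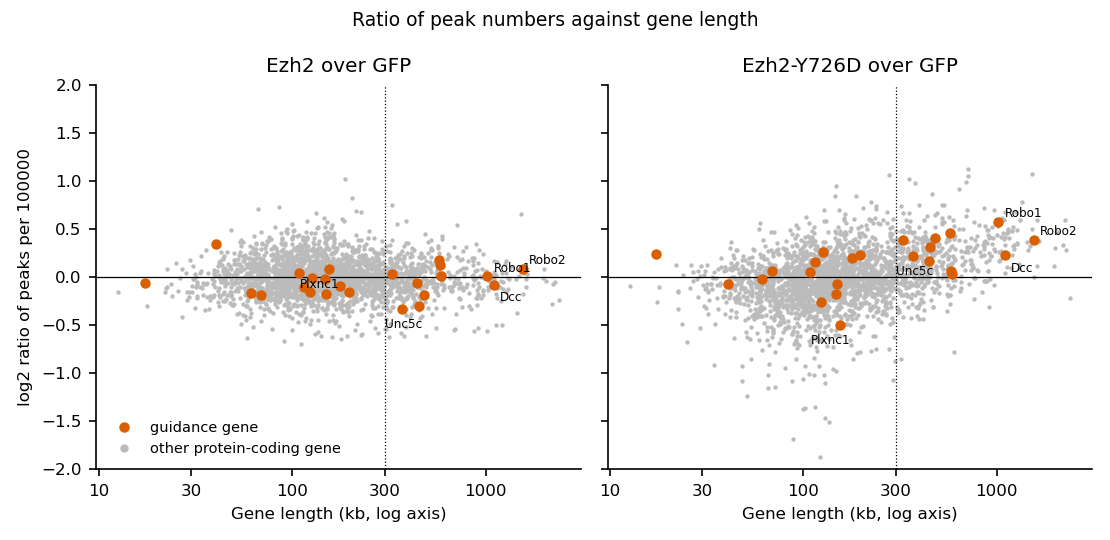
The log2 ratio of peaks per 100000 (y axis) of Ezh2 over GFP (left) and Ezh2-Y726D over GFP (right) against gene length (x axis, kb, log scale) for protein-coding genes with at least 10 peaks on average; orange, the 24 guidance genes among them; dotted line, 300 kb. On the right the cloud lies higher at the long end, with a median of 0.17 at 300 kb and above, and Robo1, Robo2 and Dcc lie above 0.

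Single regions were also compared by the presence of a peak. Against GFP, 70 member regions (6.22%) were gained with Ezh2-Y726D, meaning a peak in every Ezh2-Y726D list and no GFP list, and 30 (2.67%) were lost, beside 4.77% and 4.72% of all regions. In the 11 long members, 52 of 640 regions (8.12%) were gained and 12 (1.88%) lost, beside 6.35% and 2.89% of 28894 regions at all genes of that length. In the 32 shorter members 18 of 485 regions (3.71%) were gained and 18 lost, beside 3.45% and 5.14%. Receptors had 52 of the gained regions (7.81% of their 666 regions) and ligands 18 (3.92% of their 459). The roles were not matched for gene length. With Ezh2 against GFP, 20 were gained and 20 lost (1.78% each, beside 2.72% and 1.68%). For Ezh2 against Ezh2-Y726D, 52 were gained (4.62%) and 81 lost (7.2%), beside 8.96% and 6.14%.

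Regions found in all lists were compared by rank. Of the 366 regions found in all lists, 10 were called higher and 11 lower for Ezh2 minus GFP (2.73% and 3.01%, beside 1.59% and 2.84% of all regions). For Ezh2-Y726D minus GFP, 15 were higher and 12 lower (4.10% and 3.28%, beside 3.55% and 4.65%). For Ezh2 minus Ezh2-Y726D, 24 were higher and 22 lower (6.56% and 6.01%, beside 7% and 6.96%). Leaving out 1 library changed some of the member shares by a factor of more than 1.5, and only those refits follow. Shares over all regions were not taken for these refits, so their percentages have no background beside them. Without any 1 GFP library or Ezh2 replicate 1 or 3, 0.506% to 1.36% were higher for Ezh2 minus GFP, and without any 1 GFP or Ezh2 library 0.759% to 1.88% were lower. For Ezh2-Y726D minus GFP, 0.800% to 2.44% were higher without GFP replicate 1 or 3 or either Ezh2-Y726D library, and 0.802% to 2.13% lower without any 1 GFP or Ezh2-Y726D library. For Ezh2 minus Ezh2-Y726D, 2.62% to 4.02% were higher without Ezh2 replicate 2 or either Ezh2-Y726D library, and 1.83% and 2.67% lower without either of the latter. The median differences were 0.08, 0.03 and 0.04 over the member regions and 0.01, -0.01 and 0.02 over all regions. On the log2 fold without scaling between lists, 25 were higher and 7 lower for Ezh2-Y726D minus GFP, and 16 were higher and 41 lower for Ezh2 minus Ezh2-Y726D. Over all regions that scale called 7.18% higher and 3.55% lower in the first of these and 4.79% and 11.9% in the second. For Ezh2 minus GFP, ligands had 1 region higher and 8 lower among 173, and receptors had 9 higher and 3 lower among 193; the difference between the roles was not tested.

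Among the secreted semaphorins, Sema3e, the ligand of Plxnd1, had 2 regions inside the gene that were lower with Ezh2 than in both other groups, while its start-site region was at 73.9% to 89.3% over all lists and did not separate them. Its region chr5:14108700-14109454 was at 53.6%, 74.8% and 87.3% with GFP, 10.0%, 25.2% and 30.2% with Ezh2, and 73.8% and 76.7% with Ezh2-Y726D. Every Ezh2 list was below every other list, with differences of -1.65 ± 0.28 from GFP (limma adjusted p = 0.0154, not called without GFP replicate 2) and -1.66 ± 0.31 from Ezh2-Y726D (adjusted p = 0.00838, not called without either Ezh2-Y726D library). A further Sema3e region, chr5:14121766-14122330, was at 77.1%, 66.7% and 87.3% with GFP, 57.4%, 18.8% and 30.2% with Ezh2, and 85.9% and 86.0% with Ezh2-Y726D (-1.39 ± 0.30 from GFP, limma adjusted p = 0.0312, lost in 7 of 14 alternatives, among them leaving out any GFP library or Ezh2 replicate 2 or 3; -1.71 ± 0.33 from Ezh2-Y726D, adjusted p = 0.00901, lost without either Ezh2-Y726D library).

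In the flank of Sema3f, a ligand of Nrp2, chr9:107675678-107676666 rose with both forms. It was at 9.44%, 13.4% and 37.8% with GFP, 75.6%, 77.5% and 77.3% with Ezh2, and 66.7% and 53.9% with Ezh2-Y726D (1.77 ± 0.22 for Ezh2 minus GFP, limma adjusted p = 0.00625, called in 16 of 16 alternatives; 1.18 ± 0.24 for Ezh2-Y726D minus GFP, adjusted p = 0.0184). This region lies inside Gnat1, the transducin subunit of rods, and the rod markers with a start-site peak were 11 in every GFP list and 8 to 11 in the others. What part rods have in this value was not tested.

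Of the membrane-bound semaphorins, Sema4d and Sema4a also had regions away from the start sites that differed. The Sema4d region chr13:51767515-51768697 was at 35.7%, 43.1% and 53.9% with GFP, 73.6%, 66.6% and 73.4% with Ezh2, and 18.5% and 3.44% with Ezh2-Y726D. The 3 groups did not overlap, with 1.96 ± 0.25 for Ezh2 minus Ezh2-Y726D (limma adjusted p = 0.00179, called in 13 of 13 alternatives) and -1.13 ± 0.25 for Ezh2-Y726D minus GFP (adjusted p = 0.0259). In its flank, inside Secisbp2, chr13:51676541-51677577 had peaks at 62.3%, 68.6% and 82.3% in Ezh2 and none in the other 5 lists. The Sema4a region chr3:88449441-88450268 was at 60.4%, 61.6% and 52.8% with GFP, 25.3%, 22.8% and 44.0% with Ezh2, and 91.7% and 81.1% with Ezh2-Y726D, with -1.90 ± 0.25 for Ezh2 minus Ezh2-Y726D (limma adjusted p = 0.00200, called in 15 of 15 alternatives) and 1.09 ± 0.25 for Ezh2-Y726D minus GFP (adjusted p = 0.0300). Sema7a, a semaphorin anchored to the membrane by lipid, had 7, 7 and 9 peaks with GFP, 10, 11 and 13 with Ezh2, and 7 and 8 with Ezh2-Y726D. Sema4f had 3, 4 and 4, then 5 in each Ezh2 list, then 3 and 3. The summed numbers of peaks at T cell and microglial markers given above were highest in Ezh2 and lowest in Ezh2-Y726D. The Sema4d region chr13:51767515-51768697 had the same order. Sema7a and Sema4f had most peaks in Ezh2, and their numbers of peaks in GFP and Ezh2-Y726D overlapped. Per 100000 peaks of the list, Sema7a still overlapped between GFP and Ezh2-Y726D. On that scale the 3 groups did not overlap for Sema4f, which had the order of the markers. Its means were 3.04 for GFP, 3.85 for Ezh2 and 2.37 for Ezh2-Y726D. The Sema4a region was highest in Ezh2-Y726D. What part these cells have in any of these values was not tested.

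Class 5 and 6 semaphorins are transmembrane proteins. Sema5a had 30, 22 and 31 peaks in GFP, 24 in each Ezh2 list, and 37 and 35 in Ezh2-Y726D, and the Ezh2-Y726D libraries were above all others. Sema6b, a ligand of plexin A receptors, had 10, 9 and 10, then 10, 9 and 11, then 12 and 12. In Sema6d, chr2:124650799-124651539 had no peak in GFP or Ezh2 replicate 1, 37.2% and 72.2% in Ezh2 replicates 2 and 3, and 57.5% and 74.6% in Ezh2-Y726D. Sema6c had 4, 5 and 3 peaks in GFP, 2, 5 and 3 in Ezh2, and 2 in both Ezh2-Y726D lists. Sema3d had 5, 5 and 4, then 3, 5 and 5, then 6 and 6, and Sema3g had 3 in every GFP list, then 3, 4 and 5, then 4 and 4. Of the semaphorins with fewest peaks, Sema3c had 2 or 3, Sema4g 3 or 4 and Sema4c 3 or 4 in every list. Sema3b had 5 or 6, Sema4a 7 or 8, Sema4b 8 to 11, Sema3f 5 to 11 and Sema3e 4 to 10 peaks. Sema3a, the classic repellent for axons with neuropilin-1, had 12 to 20 peaks in GFP, 12 to 17 with Ezh2 and 19 and 23 with Ezh2-Y726D. Sema5b had 16 to 21, Sema6a 15 to 26, Sema6d 16 to 23 and Sema4d 19 to 25.

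Among the remaining ligands, Slit2 had 17, 21 and 21 peaks with GFP, 23, 21 and 21 with Ezh2, and 26 and 28 with Ezh2-Y726D, so that its number of peaks was highest where its start-site region was lowest. Slit1 had 24 to 30 and Slit3 24 to 29 peaks over all lists. The Slit1 region chr19:41657243-41658007 was at 66.7%, 58.6% and 81.8% with GFP, 46.3%, 63.1% and 56.7% with Ezh2, and 12% and 30.0% with Ezh2-Y726D (-1.48 ± 0.25 from GFP, limma adjusted p = 0.00983, not called without Ezh2-Y726D replicate 1). Slit3 had regions that were absent from a whole group. Peaks at chr11:35318136-35318892 (46.7% to 80.9% in GFP, 51.5% to 72.2% in Ezh2) and chr11:35607201-35607668 (42.9% to 67.4% and 27.3% to 60.0%) were absent from Ezh2-Y726D, and one at chr11:35512652-35514014 (20.0% to 80.9% in GFP, 50.8% and 66.6% in Ezh2-Y726D) was absent from Ezh2. Ntn1 had 11 to 17 peaks and Ntn4 6 to 9. A peak in the flank of Ntn1, chr11:68199137-68199651 inside Stx8, was found in the 3 Ezh2 lists alone (41.0%, 56.5% and 55.7%). In Ntn4, chr10:93688342-93689197 was at 20.0%, 51.7% and 48.0% in GFP and 72.2%, 70.4% and 86.1% in Ezh2, with no peak in Ezh2-Y726D.

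Plexins and neuropilins did not move as a group. Plxna2 had 21, 19 and 22 peaks with GFP, 17, 23 and 20 with Ezh2, and 25 and 26 with Ezh2-Y726D, and Plxnb1, the receptor of Sema4d, had 3, 5 and 4, then 3, 4 and 4, then 6 and 6. In Plxna2, peaks at chr1:194650147-194650638 were at 38.9%, 59.9% and 67.1% in GFP and absent from all 5 other lists, and those at chr1:194656739-194657189 were at 58.8%, 50.0% and 66.4% in GFP, 27.3% and 47.2% in Ezh2 replicates 1 and 2, and absent elsewhere. The Plxna1 region chr6:89347881-89348975 was at 36.6%, 57.1% and 41.0% with GFP, 1.98%, 14.8% and 1.84% with Ezh2, and 28.1% and 22% with Ezh2-Y726D (-1.5 ± 0.27 for Ezh2 minus GFP, limma adjusted p = 0.0191, not called without GFP replicate 2 or Ezh2 replicate 1 or 3). Plxna1 had 6 to 9 peaks and Plxnb2 8 to 10.

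Plxnc1, a receptor of Sema7a, was the receptor with fewer peaks in Ezh2-Y726D. It had 19, 18 and 26 with GFP, 26, 21 and 24 with Ezh2, and 14 and 17 with Ezh2-Y726D. The Ezh2-Y726D libraries were below all others. One region, chr10:94824066-94824747, had peaks in the Ezh2-Y726D lists alone, at 63.9% and 64.8%. Plxnd1 had 9 peaks in every GFP list, 13, 10 and 14 with Ezh2, and 8 and 10 with Ezh2-Y726D, and the peak in its flank at the start of H1f8, chr6:115945651-115946077, was found in Ezh2 alone (52.3%, 66.7% and 43.1%). The T cell and microglial marker counts were lowest in Ezh2-Y726D, as was Plxnc1, while the Plxnd1 numbers of GFP and Ezh2-Y726D overlapped. What part these cells have in either value was not tested.

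Nrp2, the co-receptor for Sema3f, had 23, 20 and 24 peaks in GFP, 21, 23 and 23 in Ezh2, and 26 in both Ezh2-Y726D lists. In its flank, chr1:62825710-62826344 was at 55.9%, 48.4% and 42.1% with GFP, 55.7%, 50.0% and 51.7% with Ezh2, and 2.90% and 5.41% with Ezh2-Y726D. The Ezh2-Y726D libraries were far below the others, by -1.55 ± 0.21 against GFP (limma adjusted p = 0.00417) and 1.64 ± 0.21 for Ezh2 minus Ezh2-Y726D (adjusted p = 0.00173), both called in 14 of 14 alternatives. Nrp1, the co-receptor for Sema3a, had 16 to 17 peaks in GFP, 16 to 19 with Ezh2, and 13 and 18 with Ezh2-Y726D. Unc5a had 13 to 18, Unc5b 10 to 14 and Robo3 5 to 7 peaks over all lists.

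Other genes of axon guidance and its signalling were counted the same way. Of 62 listed (61 matched a gene of the annotation), 1214 regions were counted, 460 of them found in all lists. By limma, 6 were higher and 7 lower for Ezh2 minus GFP, 8 and 15 for Ezh2-Y726D minus GFP, and 24 and 16 for Ezh2 minus Ezh2-Y726D, which are 1.3% and 1.52%, 1.74% and 3.26%, and 5.22% and 3.48%. Over all regions the shares were 1.59% and 2.84%, 3.55% and 4.65%, and 7% and 6.96%. The largest called difference of each comparison was at Ablim1, an actin-binding LIM protein (1.43 ± 0.22 for Ezh2 minus GFP, limma adjusted p = 0.0107, and 1.90 ± 0.24 for Ezh2 minus Ezh2-Y726D, adjusted p = 0.00167), or at Dscam, a netrin receptor (-1.58 ± 0.21 for Ezh2-Y726D minus GFP, adjusted p = 0.00360). The number of peaks did not overlap between Ezh2-Y726D and GFP for 8 of these 61 genes upward and 5 downward, beside 8.43% and 12% of all genes.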

How the data were processed

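ATAC-seq peaks of sorted RGCs were analysed in 3 GFP, 3 Ezh2 and 2 Ezh2-Y726D libraries, grouped by their titles. The authors called peaks with MACS2 in each library separately and deposited 1 narrowPeak list per library (GRCm38). The submitters' processing notes also name cutadapt, Bowtie2, SAMtools, Picard and deepTools. Versions and the peak threshold are not given in the sources used here, and the lowest −log10 q was 1.31 to 1.38. The fold the authors deposited (a ratio) sets a summit's pileup against its local background. Significance was deposited as −log10 of p and of q, as the caller wrote it, and the deposited score and summit distance were not used as results. Depth is unknown, and folds were therefore compared only as ranks within a list.

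Genes came from RefSeq (GRCm38.p6, 1 row per symbol), and start sites from the RefSeq promoter table. For 9 members without an entry there (Dcc, Ntn1, Plxna1, Plxna4, Sema3b, Sema3f, Sema6a, Slit1 and Unc5d) both ends of the gene stood for a start site. Peaks sharing at least 1 bp were merged, and a region took each list's highest fold in it. Ranks were tested with limma 3.58.1 in R 4.3.3 over the 69493 regions in all 8 lists, with 3 contrasts from 1 fit, Benjamini-Hochberg adjustment and a threshold of 0.05. Presence of peaks was counted with no test, and each member's number of peaks was compared by a two-sided exact permutation test. Interval steps and the limma step were tested on simulated data. Python 3.11.15 was used for the rest.

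Named were, for each comparison and direction, the 3 called member regions with the largest difference, the 3 gained and the 3 lost with the highest mean percentile, members whose start-site region changed or was missing, the 5 members with most peaks, and each member's number of peaks. For the other pathway genes the largest called regions were named. The members, the pathway and marker lists and the tests were chosen with earlier results of these data known. Alternatives were lists of equal length, a stricter q, genes without flank, peaks covering at least 0.5 of a region, ranking by −log10 p, unscaled log2 fold, regions in at least 5 lists, replicate blocks and leaving out each library. No genome was used, so sequences of regions away from promoters are not shown.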

Additional observations from a re-analysis of the deposited data

How the results depend on the processing

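Of 25 differences named for single regions, each refitted under 13 to 16 alternatives, none of the 364 refits reversed a direction, 290 kept the call, 74 lost it, and 8 of the differences were called throughout. Adjusted p-values of a region in comparisons other than the one that named it were not refitted. Leaving out a library leaves fewer samples, which loosens presence and non-overlap by construction, and with 1 Ezh2-Y726D library limma assumes that it varies like the other groups.

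For limma calls in Ezh2 minus GFP, the 2.73% higher became 1.5% at a −log10 q of at least 5 and 1.26% over regions in at least 5 lists. The unscaled log2 fold gave 6.83% higher and 1.91% lower for Ezh2-Y726D minus GFP and 11.2% lower for Ezh2 minus Ezh2-Y726D, where peaks covering at least 0.5 of a region gave 4.04% higher. Leaving out 1 library gave 0.506% to 2.14% higher and 0.759% to 2.41% lower for Ezh2 minus GFP, 0.800% to 4.23% and 0.802% to 3.17% for Ezh2-Y726D minus GFP, and 2.62% to 5.96% and 1.83% to 5.82% for Ezh2 minus Ezh2-Y726D. Gained and lost regions ranged over 1.96% to 4.18% and 1.87% to 3.47%, 7.38% to 13.9% and 2.76% to 4.98%, and 5.69% to 6.67% and 8.71% to 14.4% in the same order. With lists of equal length, 2.73% were lost in Ezh2 against GFP. Among these alternatives, shares over all regions are given only for the unscaled log2 fold, so the other percentages have no background beside them.

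Deviations of same-numbered libraries correlated at -0.0151 to 0.0478 for title numbers and 0.0018 to 0.0478 for peak name numbers. For differently numbered libraries these were -0.0482 to 0.0461 and -0.0482 to 0.0303. Deviations were taken from group means, so those of the 2 Ezh2-Y726D libraries mirror each other. Whether the numbers pair the libraries cannot be decided from so few values. With a replicate block on title numbers, 1.64% were higher and 1.64% lower for Ezh2 minus GFP. A replicate block on peak name numbers gave 1.64% and 1.91%, with 1.37% higher for Ezh2-Y726D minus GFP and 3.28% lower for Ezh2 minus Ezh2-Y726D.

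Of genes whose numbers of peaks did not overlap, Ezh2 over GFP had 1 higher without flanks and 4 lower with equal lists. It had 0 lower at the stricter q (2.63% of all genes) and 3 lower per 100000 peaks (9.6% of all genes). Ezh2-Y726D over GFP had 7 higher at the stricter q (6% of all genes) and 7 lower per 100000 (23.6% of all genes). Ezh2 over Ezh2-Y726D had 5 higher at the stricter q, beside 19.8% of all genes. Shares over all genes are not given for the other alternatives. Leaving out 1 library gave 3 to 9 higher and 1 to 3 lower, 13 to 21 and 3 to 7, and 3 to 8 and 13 to 18. Ligand peaks per 100000 differed by -5.81 for Ezh2 minus GFP and -20.9 for Ezh2 minus Ezh2-Y726D at the stricter q, and by 20.5 for Ezh2-Y726D minus GFP with equal lists. The causes of these moves were not tested. The unknown depth limits what the absence of a peak can show.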
